A study of Mus musculus with 4 samples.

Results

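The genes described here are those of the constitutive proteasome: every gene in the count matrices whose symbol starts with Psma to Psmg and a digit, without pseudogene names and without the immunoproteasome subunits Psmb8, Psmb9 and Psmb10. This rule takes 47 of 32285 genes. Their transcripts were measured in live CD45+ CD3+ CD8+ T cells taken from B16F10 melanomas of C57BL/6J mice aged 6 to 8 weeks, by droplet single-cell RNA sequencing of transcript 5-prime ends. The 2 groups hold 2 samples each: the control sgScr, with a scrambled guide, and sgArid1a, with a guide that targets Arid1a, which encodes a subunit of SWI/SNF chromatin remodellers. The study asked about ARID1A, R-loops and interferon signalling in anti-tumour immunity. The labels give no further treatment or allele for either group. They state neither which cell type received the guide nor whether replicates are separate mice, so the p-values below measure a spread between samples that may be technical.

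The proteasome degrades proteins that carry ubiquitin. Its core particle is a barrel of outer alpha rings, which gate the entry, and inner beta rings, in which beta1, beta2 and beta5 hold the cutting sites. The regulatory particle caps the barrel: a base with a ring of ATPases unfolds the substrate and pushes it in, and a lid removes the ubiquitin. In lymphocytes and under interferon, Psmb9, Psmb10 and Psmb8 replace beta1, beta2 and beta5, and the PA28 activator of Psme1 and Psme2 can take the place of the cap.

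By role the 47 genes are 7 alpha and 7 beta subunits of the core, 6 base ATPases (Psmc1 to Psmc6), 11 further subunits of the regulatory particle (Psmd genes), 3 base assembly chaperones (Psmd5, Psmd9 and Psmd10), 5 activator genes (Psme), the inhibitor Psmf1, 4 core assembly chaperones (Psmg) and 3 others. The 3 others are Psma8, an alpha subunit of the testis, Psmb11, the beta5 subunit of the thymus, and Psmc3ip, a recombination factor that is no subunit. In the text the core is the 14 alpha and beta genes and the regulatory particle the 17 ATPase and Psmd subunits. Adrm1 and Sem1 are also regulatory particle subunits but lie outside the symbol rule. Psma8 was at 0.0509 CPM at most and Psmb11 at 0.0123 CPM at most. Both failed the filter on low counts, so 45 of the 47 were tested.

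The 4 matrices held 7376 to 13085 barcodes and 32484099 to 81916795 UMIs (counted molecules), and 38261 T cells were kept. Levels are CPM, UMIs of a gene per 1000000 UMIs of the sample or class. Arid1a itself stood at 85.2 and 93.6 CPM in sgScr and at 74.2 and 72.6 CPM in sgArid1a. Since an edited transcript can persist and the edited cell type is not named, these values do not check the labels. The 6 CD8 T cell markers summed to 4891 to 5302 CPM, while 5 of 6 melanoma and all 4 red cell markers were under 1 CPM in every sample. Pairs of libraries shared 78 to 231 barcodes, at most 2.07% of the smaller library.

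Promoter sequences were in the RefSeq table (build GRCm38.p6) for 39 of the 47 genes. They are shown for 3 genes to which the results return. Psmb6 and Psmb5 encode the constitutive beta1 and beta5 subunits, and Psme4 encodes PA200, an activator, and was the one member that fell. Each runs from 250 bases before the start to 30 bases within the transcript, 5′ to 3′ on the gene's strand: chr11:70525107-70525386 (plus) for Psmb6, chr14:54617966-54618245 (minus) for Psmb5 and chr11:30771525-30771804 (plus) for Psme4. Capitals mark matches to TGACNNNGC, the core of the antioxidant response element to which Nfe2l1 and Nfe2l2 bind, on either strand. The 3 genes are all among the 6 of the 39 with such a match, so they do not stand for the other members. A link between a match and the change of a gene was not tested.
Psmb6: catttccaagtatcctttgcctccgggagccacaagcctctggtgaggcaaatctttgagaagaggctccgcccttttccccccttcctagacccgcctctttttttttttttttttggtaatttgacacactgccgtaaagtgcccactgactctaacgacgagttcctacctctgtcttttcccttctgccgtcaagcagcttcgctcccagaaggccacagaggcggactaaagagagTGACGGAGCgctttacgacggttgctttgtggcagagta
Psmb5: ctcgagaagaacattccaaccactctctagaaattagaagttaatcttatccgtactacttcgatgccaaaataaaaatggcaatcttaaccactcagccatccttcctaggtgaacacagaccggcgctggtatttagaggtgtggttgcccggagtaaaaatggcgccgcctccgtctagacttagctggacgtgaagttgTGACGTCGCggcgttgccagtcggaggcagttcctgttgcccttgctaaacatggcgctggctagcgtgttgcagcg
Psme4: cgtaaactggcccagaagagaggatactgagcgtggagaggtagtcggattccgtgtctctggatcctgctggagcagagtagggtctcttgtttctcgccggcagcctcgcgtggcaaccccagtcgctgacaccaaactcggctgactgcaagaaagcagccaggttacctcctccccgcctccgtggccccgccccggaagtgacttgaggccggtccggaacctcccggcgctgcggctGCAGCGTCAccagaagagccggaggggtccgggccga
The match began 9 bases before the start in Psmb6, 47 bases before it in Psmb5, and, on the other strand, 7 bases before it in Psme4. Over windows of 300 bases, 250 before to 50 after the start, TGACNNNGC was in 6 of the 42 promoters of these 39 genes (14.3%) and in 12.4% of all 32851 promoters. CCAAT, the letters of the NF-Y box, was in 14 of the 42 (33.3%) and in 37.4% of all. Both shares of the members lay close to those of all promoters.

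Summed over all T cells, most proteasome genes were higher in sgArid1a, with larger values for the core than for the regulatory particle; the difference between the particles was not tested. The 14 core genes together stood at 2686 and 2713 CPM in sgScr and at 3923 and 3932 CPM in sgArid1a, a log2 ratio of 0.54. The 17 regulatory particle genes stood at 1440 and 1455 CPM in sgScr and at 1787 and 1874 CPM in sgArid1a, a log2 ratio of 0.34. In edgeR's quasi-likelihood test, 40 of the 45 tested members rose, Psme4 fell, and Psmc6, Psmd4, Psmd5 and Psmf1 did not pass an adjusted p of 0.05. Of all 12793 genes tested, 28.0% rose and 26.4% fell. The median log2 fold change was 0.62 over the core, 0.42 over the regulatory particle, 0.44 over the 45 tested members and -0.02 over all genes tested. Both sgArid1a samples lay above both sgScr samples in 42 of the 45 members, against 35.0% of all genes tested. They lay below both in 1 member, against 5260 of all 12793 genes, so groups that do not overlap were common.

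**Figure D1:**
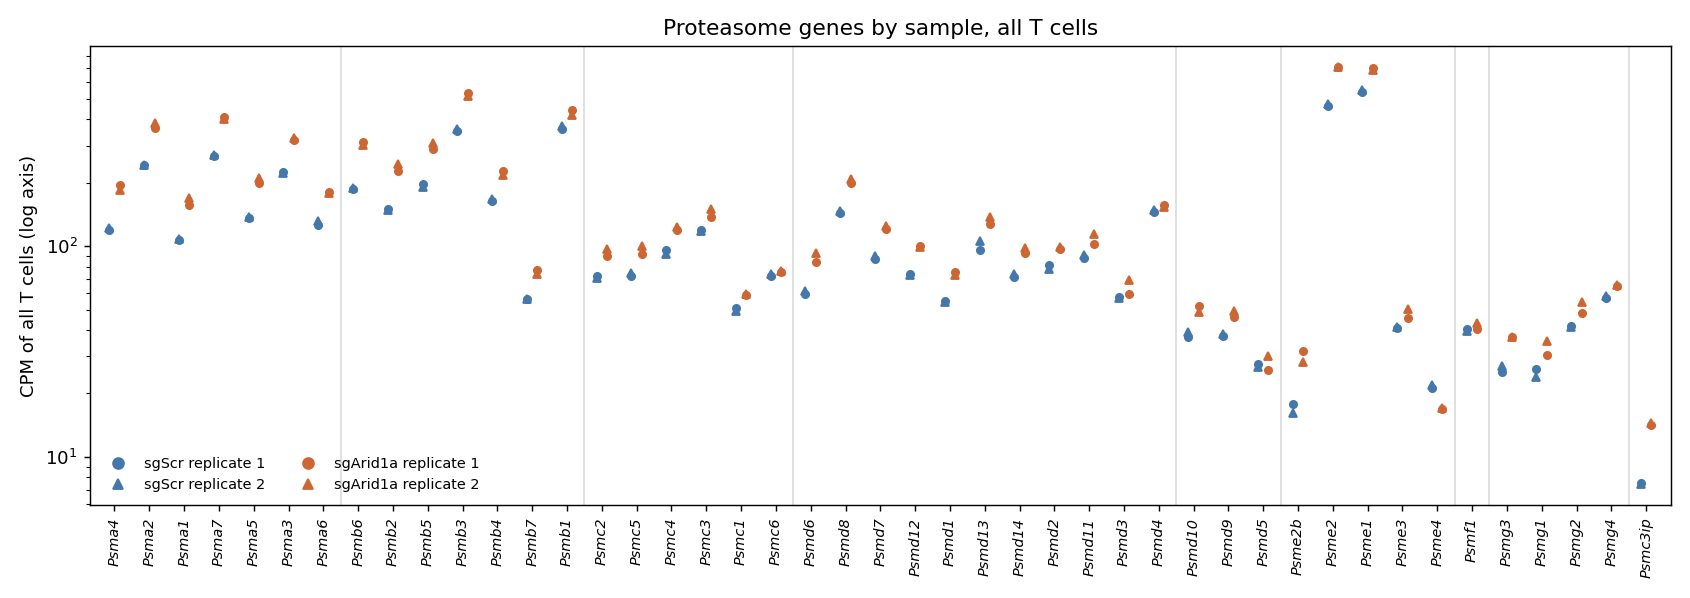
CPM over all T cells (log axis) of the 45 tested members in each of the 4 samples, grouped by role from the alpha ring at the left to Psmc3ip at the right. Blue symbols are sgScr and orange symbols sgArid1a. In 42 of 45 members both orange symbols lie above both blue ones, against 35.0% of all genes tested, and Psme4 is the reverse.

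Other measures moved with the groups. The 12 listed cycling markers all rose in sgArid1a, with summed levels of 797.5 and 864.1 CPM in sgScr and of 1875 and 1822 CPM in sgArid1a. All 10 exhausted and all 10 early activated markers rose as well, and so did 6 of 7 heat shock markers, from sums of 900.1 and 937.3 CPM to 1306 and 1292 CPM. All 9 naive and central memory markers fell, from sums of 3143 and 3059 CPM to 1373 and 1419 CPM, and all 8 tested interferon-stimulated markers rose, from sums of 206.4 and 216.8 CPM to 372.2 and 376.5 CPM. Among markers of other cells, 4 of 8 B cell and MHC class II genes rose and 1 fell (sums of 52.1 to 64.8 against 114.3 to 114.9 CPM, with Cd79a and Ms4a1 under 1 CPM in every sample), and 4 of 9 macrophage and dendritic cell genes rose and 1 fell (119.3 to 119.9 against 161.0 to 167.2 CPM, with C1qa, Csf1r, Adgre1 and Flt3 under 1 CPM). Their part in the proteasome values over all T cells was not tested. In such sums alone more cells of a state and more RNA per cell cannot be told apart. The clustering described below put 259 of 7636 T cells of sgScr replicate 1 and 248 of 7157 of replicate 2 into a cycling-like class. For sgArid1a replicates 1 and 2 it put 1265 of 10695 and 1598 of 12773 there. Its naive/central memory-like class took 3964 and 3638 sgScr cells, against 1810 and 2426 sgArid1a cells. The part of these cell numbers in the marker sums was not tested. With cycling-like cells left out, 36 members rose and Psme4 fell, with median log2 fold changes of 0.51 over the core and 0.29 over the regulatory particle.

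In the alpha ring, all 7 genes rose, by 0.52 to 0.68 on the log2 scale. Psma7 was read at 266 and 272 CPM in sgScr and at 409 and 403 CPM in sgArid1a (log2 0.62 ± 0.06 SE, adjusted p = 3.4e-06). Psma4 had the largest rise of the ring, from 120 and 122 CPM to 194 and 185 CPM (0.68 ± 0.06). Psma6 had the smallest, from 125 and 131 CPM to 181 and 179 CPM (0.52 ± 0.06). In all 7 both sgArid1a samples lay above both sgScr samples, as they did in 35.0% of all genes tested.

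In the beta ring all 7 genes rose too, over a wider range, 0.27 to 0.74. Values of the 3 subunits with cutting sites ran from 0.45 to 0.74. Psmb6 (beta1, chromosome 11, 70525367 to 70527858, GRCm38), whose promoter is shown above, went from 187 and 189 CPM to 310 and 303 CPM, the largest rise of the core (0.74 ± 0.06, adjusted p = 7.6e-07). Psmb5 (beta5, chromosome 14, 54614119 to 54618022) went from 196 and 190 CPM to 287 and 307 CPM (0.65 ± 0.06). Psmb7 (beta2, chromosome 2, 38588036 to 38644087) went from 56.3 and 56.1 CPM to 76.9 and 73.5 CPM (0.45 ± 0.07). Psmb3, a subunit with no cutting site, rose from 352 and 358 CPM to 529 and 512 CPM (0.58 ± 0.07). Psmb1 had the smallest rise of the core, from 361 and 370 CPM to 443 and 421 CPM (0.27 ± 0.07), and its call was lost without either sgScr sample, with log2 values of 0.27 and 0.26. The summed beta ring was 1.20 times the summed alpha ring in each sgScr sample and 1.151 and 1.122 times in sgArid1a. These differences between subunits were not tested.

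Of the 6 base ATPases, 5 rose, by 0.26 to 0.42; the call of Psmc1, the lowest of them, was lost without sgScr replicate 2 and without cycling-like cells. Psmc3 was read at 119 and 117 CPM in sgScr and at 138 and 150 CPM in sgArid1a (0.31 ± 0.06), and Psmc2 had the largest rise, from 71.8 and 70.6 CPM to 89.9 and 97.0 CPM (0.42 ± 0.06). Psmc6 stood at 71.9 and 73.9 CPM in sgScr and at 75.2 and 76.3 CPM in sgArid1a, and its log2 value of 0.08 ± 0.06 did not pass (adjusted p = 0.25). Without cycling-like cells the Psmc6 value was -0.05.

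Of the 11 other regulatory particle subunits, 10 rose, and Psmd4, a ubiquitin receptor of the base, did not pass (0.11 ± 0.06, adjusted p = 0.14). Psmd4 gained a call without sgArid1a replicate 2, a fit with a lone sample in that group. The calls of Psmd3 (0.20 ± 0.07) and Psmd2 (0.32 ± 0.06) were lost without cycling-like cells, and that of Psmd3 also without sgScr replicate 1, sgScr replicate 2 or sgArid1a replicate 2. Psmd8, a lid subunit, rose from 144 and 146 CPM to 198 and 208 CPM (0.51 ± 0.06). Psmd6, also of the lid, had the largest rise, from 59.5 and 61.3 CPM to 83.8 and 92.5 CPM (0.57 ± 0.06). Psmd14, the deubiquitinase of the lid, rose by 0.42 ± 0.06. The summed lid was 0.889 and 0.918 times the summed base in sgScr and 0.981 and 1.01 times in sgArid1a. Of the base assembly chaperones, which hold ATPases until the ring closes, Psmd10 and Psmd9 rose by 0.43 and 0.36. The third, Psmd5, stood at 27.4 and 26.6 CPM in sgScr and at 25.8 and 30.1 CPM in sgArid1a, groups that overlap (0.08 ± 0.07, adjusted p = 0.37). Over the alternatives its adjusted p ran from 0.035, without sgArid1a replicate 1, to 0.91, without sgArid1a replicate 2, where its log2 value was -0.01.

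Activators moved in both directions. Psme1, the alpha chain of PA28, rose from 536 and 551 CPM to 703 and 688 CPM (0.38 ± 0.07), and Psme2, its beta chain, rose by 0.62 ± 0.07. Psme2b had the largest rise of the activator genes, from 17.9 and 16.1 CPM to 31.9 and 28.2 CPM (0.84 ± 0.09). It is a near copy of Psme2, so reads of the pair may be split and its own level is uncertain. Psme3, the nuclear PA28 gamma, rose by 0.25 ± 0.06, a call lost without sgScr replicate 2 and without cycling-like cells. Psme4 (PA200, chromosome 11, 30771726 to 30880361) was the one member that fell, from 21.2 and 22.0 CPM to 16.9 and 17.1 CPM (-0.32 ± 0.07, adjusted p = 0.0018). The inhibitor Psmf1 overlapped between groups at 39.5 to 43.0 CPM and did not pass (0.09 ± 0.06, adjusted p = 0.25).

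All 4 core assembly chaperones rose. Psmg3 went from 25.2 and 27.0 CPM to 36.9 and 37.2 CPM (0.53 ± 0.06). Psmg4 went from 56.8 and 57.9 CPM to 65.0 and 65.5 CPM (0.22 ± 0.06, adjusted p = 0.008), a call lost without either sgScr sample, with log2 values of 0.22 and 0.20. Psmc3ip, the gene of the rule that is no subunit, had the largest rise of the 45, from 7.49 and 7.42 CPM to 14.1 and 14.5 CPM (0.97 ± 0.09).

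**Figure D2:**
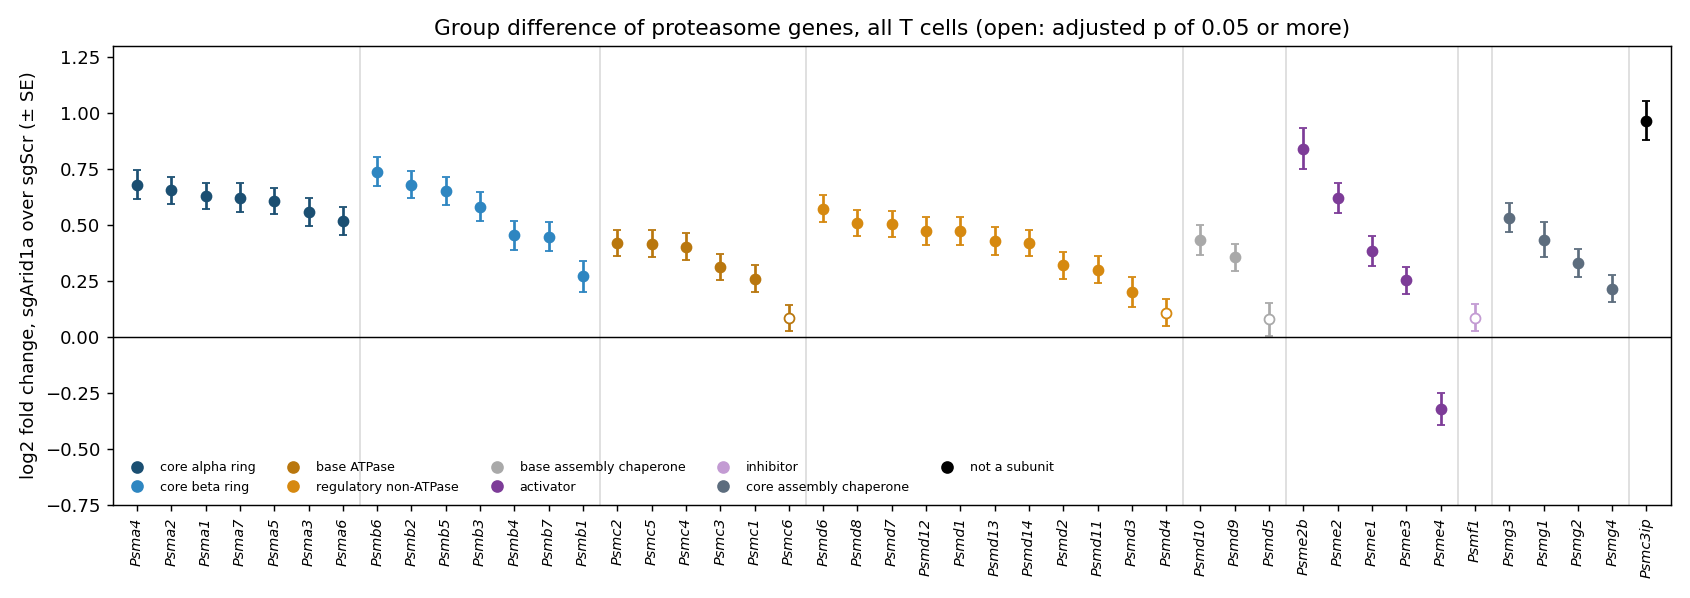
Log2 fold change of sgArid1a over sgScr across all T cells (points) with its standard error (bars) for the 45 tested members, ordered within each role, filled where the adjusted p was under 0.05. The core genes run from 0.27 to 0.74 and the regulatory particle genes from 0.08 to 0.57, and Psme4 is the one filled point below 0.

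The other genes of the pathway were taken from lists drawn up beside the members. Of 31 tested pathway genes without a Psm symbol, 8 rose and 4 fell, with a median log2 fold change of 0.05. Beside these counts and those of the lists below, 28.0% of all genes tested rose and 26.4% fell. Of the 14 genes that make ubiquitin, carry it or unfold substrates, 1 rose and Ubqln2, a shuttle for ubiquitylated proteins, fell by 0.26. Of the 9 genes of proteins bound to the proteasome, 4 rose and 1 fell, Txnl1, a thioredoxin of the regulatory particle, by most (0.67 ± 0.06), while the regulatory particle subunit Sem1 rose by 0.47 and Adrm1, a ubiquitin receptor, did not pass (0.14 ± 0.11). Of the 8 tested genes for assembly and transcription of subunits, 3 rose and 2 fell. Pomp, the maturation factor of the core, rose by 0.57 ± 0.07. Nfe2l2, the oxidative stress factor that can bind antioxidant response elements, fell from 35.2 and 35.3 CPM to 22.0 and 21.8 CPM (-0.66 ± 0.07). Nfe2l1, the factor known for raising subunit genes when the proteasome is blocked, had a log2 value of -0.23 ± 0.09 (adjusted p = 0.051), and Ngly1, an enzyme that activates it, fell by 0.33. The immunoproteasome genes Psmb8, Psmb9 and Psmb10 rose by 0.52, 0.57 and 0.51.

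Cells were next sorted into 12 classes by clustering without any Psm or pathway gene, 7 of which were named as states from markers, 2 of which are numbered memory-like clusters and 3 of which carry only a number. Of the last, cluster 7 was led by Klra genes, cluster 3 had 4 of 9 naive and central memory markers raised, and cluster 12 had the lowest UMI counts and a raised mitochondrial share. Named classes shared markers. The cycling-like class also had 10 of 10 exhausted and 5 of 10 early activated markers raised. The early activated-like class had 5 of 10 exhausted markers raised, and the heat shock-like class 9 of 9 naive and central memory markers. The part of these shared markers in the ratios below was not tested. The naive/central memory-like class joins clusters 0 and 2, and cluster 0 gave 2017 of its 3964 and 1814 of its 3638 cells in sgScr and 1216 of 1810 and 1613 of 2426 in sgArid1a, so its mix differs between the groups. The part of that mix in the values within the class was not tested. The levels below are within-sample ratios to naive/central memory-like cells. They describe the same cells that were clustered and carry no test. The sums rest on 1810 to 3964 naive/central memory-like and 248 to 1598 cycling-like cells per sample, with median UMIs per cell of 3070 and 13598.5 in these classes. The medians were 1773.5 and 9838 in sgArid1a replicate 1 and ran from 2920 to 3484 and from 15419 to 17260.5 in the other samples.

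Core levels differed more between states than between groups. The summed core ran from 1908 to 2122 CPM in naive/central memory-like cells of the 4 samples and from 4726 to 5393 CPM in cycling-like cells, 2.49-fold higher on average (log2 1.32 ± 0.03 SD, n = 4). The mean core count per cell was 6.12 UMIs in the former and 80.9 in the latter, which also held more UMIs in all. Early activated-like cells (3623 to 4648 CPM, 2.03-fold) and exhausted-like cells (3734 to 4206 CPM, 1.97-fold) followed, and in these the ranges of the samples overlap. Memory-like cluster 1 was 1.54-fold, cytotoxic effector-like cells 1.44-fold and interferon-stimulated-like cells 1.36-fold above naive/central memory-like cells. Heat shock-like cells lay near or below them, at 1393 to 2323 CPM.

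The regulatory particle followed the same order at the top with smaller ratios: 2.13-fold in cycling-like, 1.80-fold in early activated-like and 1.60-fold in exhausted-like cells. Of the 45 tested members, 25 were at least 2-fold higher in cycling-like than in naive/central memory-like cells in every sample, against 19.5% of 12537 genes. These were 13 of the 14 core genes, all but Psmb1, 11 of the 17 regulatory particle genes and Psmc3ip. In early activated-like cells 10 members passed that fold (6 core, 2 regulatory particle), against 12.9% of 12248 genes, and in exhausted-like cells 5 members passed it, all of the core, against 14.0% of 12422 genes. Members chosen here after their values were seen show the range. Psma4, an alpha subunit, went from 66.4 to 71.0 CPM in naive/central memory-like cells to 267 to 301 CPM in cycling-like cells, a log2 ratio of 2.01, the highest of the core. Psmd1, the large scaffold of the base, had the highest of the regulatory particle at 1.77. Psmd4, at 0.37, had the lowest of it, and Psmc3ip had 2.95.

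The activators had an order of their own. In interferon-stimulated-like cells Psme1 and Psme2 together were 1.92-fold and Psmb8, Psmb9 and Psmb10 together 2.25-fold above naive/central memory-like cells, beside 1.36-fold for the core and 1.16-fold for the regulatory particle. In cycling-like cells Psme1 and Psme2 were 1.40-fold and the immunoproteasome genes 1.96-fold above them, beside 2.49-fold for the core. Psme1 ran from 760.5 to 1104 CPM in interferon-stimulated-like cells and from 550 to 624 CPM in cycling-like cells. The ranges of the 4 samples do not overlap.

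**Figure D3:**
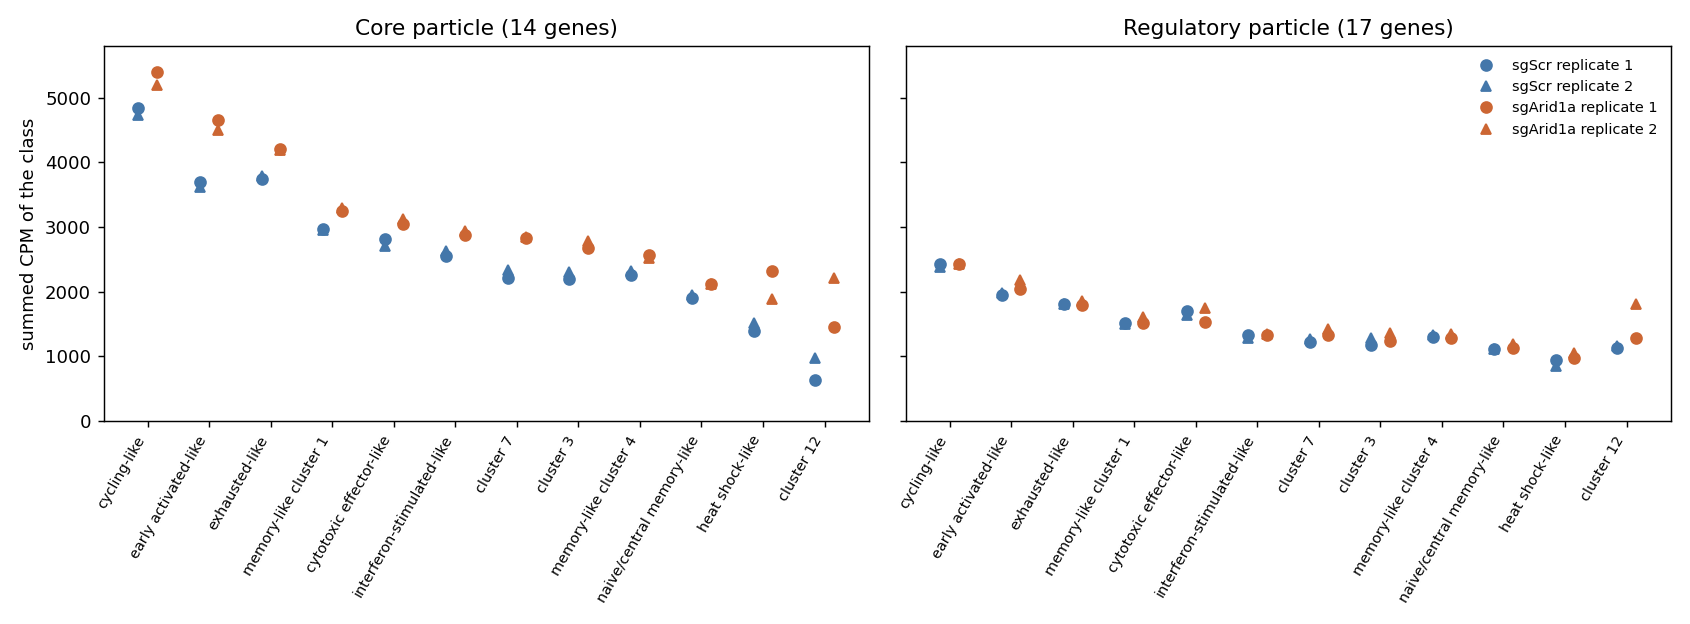
Summed CPM of the 14 core genes (left) and the 17 regulatory particle genes (right) in each of the 12 classes, ordered by the mean core level, with 1 symbol per sample. Core levels are highest in cycling-like cells (4726 to 5393 CPM), and the orange sgArid1a symbols lie above the blue sgScr symbols for the core in every class shown, while for the regulatory particle they overlap in several.

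The constitutive share of each cutting site also followed the state. It is the percentage of UMIs from the constitutive gene among those of that gene and its immunoproteasome counterpart, a share of transcripts and not of assembled particles. Psmb7 made up 36.4, 36.6, 33.0 and 30.6% of beta2 UMIs in cycling-like cells (sgScr 1 and 2, then sgArid1a 1 and 2) and 9.44, 13.4, 6.83 and 7.13% in interferon-stimulated-like cells. Exact 95% binomial intervals, which cover counting error only, were 34.0 to 38.8% in cycling-like and 6.31 to 13.4% in interferon-stimulated-like cells of sgScr replicate 1. Psmb6 made up 44.4 to 49.8% of beta1 UMIs in cycling-like and 29.9 to 31.1% in interferon-stimulated-like cells, and Psmb5 24.9 to 26.2% of beta5 UMIs against at most 14.4%. At all 3 sites the samples of these classes did not overlap. High shares were not particular to cycling-like cells. Early activated-like cells had means of 48.7, 34.2 and 26.6% at beta1, beta2 and beta5, beside 46.9, 34.1 and 25.6% in cycling-like cells. At beta1 the means of clusters 3 and 7 were 47.1 and 47.2%.

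By group over all T cells, the Psmb6 share was 41.9 and 42.2% in sgScr and 45.8 and 44.0% in sgArid1a, the Psmb7 share 22.9 and 22.6% against 22.8 and 21.1%, and the Psmb5 share 20.7 and 19.9% against 21.8% in each sgArid1a sample. Without cycling-like cells the differences between groups went from 2.82 to 0.37 percentage points for Psmb6, from -0.76 to -3.34 for Psmb7 and from 1.496 to -0.17 for Psmb5. Without sgArid1a replicate 2 the Psmb7 difference over all T cells was 0.06. Within classes the Psmb7 share was lower in both sgArid1a samples than in both sgScr samples in 8 of 12 classes and higher in none. The Psmb6 share was lower in both in 2 classes and higher in 3, and the Psmb5 share lower in 4 and higher in 2. In naive/central memory-like cells the Psmb7 share was 20.3 and 19.6% in sgScr and 17.8 and 13.96% in sgArid1a. With 2 against 2 samples the exact permutation test cannot go below a two-sided p of 0.33, so none was made.

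**Figure D4:**
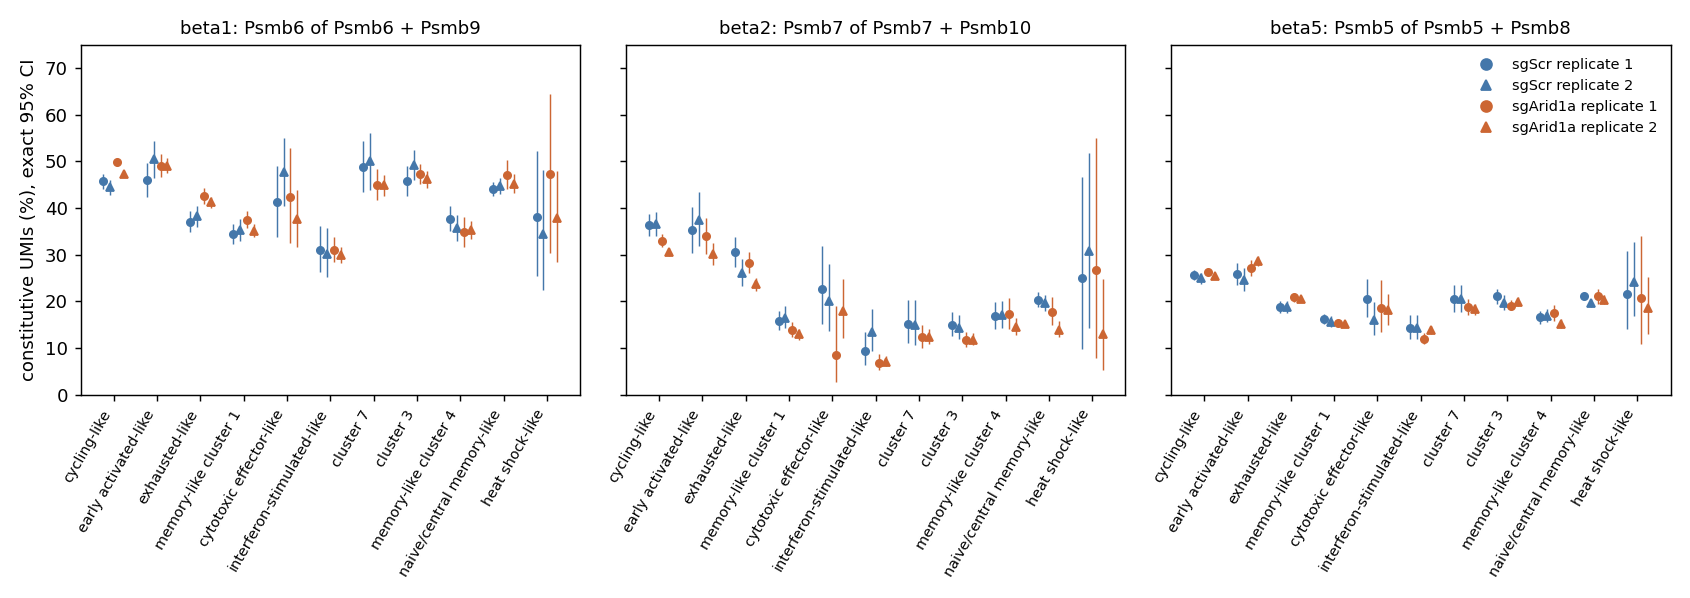
Constitutive share of UMIs (%) at beta1, beta2 and beta5 in 11 classes, cluster 12 left out for its few UMIs, with 1 symbol per sample and exact 95% binomial intervals as bars. At beta2 the share is 30.6 to 36.6% in cycling-like, 30.1 to 37.5% in early activated-like and 6.83 to 13.4% in interferon-stimulated-like cells.

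Within states fewer members passed than over all T cells, and most of the calls were of core genes. Core genes also had higher levels, with means over all T cells of 65.7 to 438 CPM. Those of the regulatory particle were 54.5 to 174 CPM, and the part of level in the calls was not tested. Each class was fitted on its own with the same edgeR test. For each class, the share of all its tested genes that rose, then that fell, is in parentheses. In naive/central memory-like cells 9 of 45 tested members rose (4.42%, 1.82%), in cycling-like cells 9 of 45 (4.92%, 4.14%), in exhausted-like cells 6 of 45 (3.26%, 3.11%) and in early activated-like cells 11 of 45 (1.74%, 0.932%). In memory-like cluster 1, 6 of 45 rose (1.69%, 1.08%), in memory-like cluster 4, 3 of 45 (1.32%, 0.449%), in cluster 3, 10 of 45 (3.2%, 1.23%), and in cluster 7, 8 of 44 (1.64%, 0.622%). In interferon-stimulated-like cells 2 of 44 rose (0.146%, 0.133%), and DESeq2 called 0 of 45. In cluster 12, 8 of 23 rose (6.25%, 2.05%), while DESeq2 gave an adjusted p for 6 members only and called 0. In edgeR 0 of 41 members passed in cytotoxic effector-like cells (0.237%, 0.079%) and 0 of 34 in heat shock-like cells (0.198%, 0.461%). Each of these had 8 members at an unadjusted p under 0.05, and DESeq2 called 0 of 45 and 0 of 18 members with an adjusted p. A single member fell in a single class, Psme4 in memory-like cluster 1 (-0.58 ± 0.17, adjusted p = 0.035).

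Summed over the 12 classes, core genes rose in 45 of 162 tests, regulatory particle genes in 3 of 195 and the other members in 24 of 144. Over the same classes 2.55% of all 95302 tests were of genes that rose and 1.51% of genes that fell. DESeq2, which gave an adjusted p for fewer members, called 29 of 151, 1 of 145 and 15 of 85 higher. Without sgScr replicate 1 the edgeR counts were 5, 0 and 9, and without sgScr replicate 2 they were 6, 0 and 5. Without sgArid1a replicate 1 they were 57, 9 and 22, and without sgArid1a replicate 2 they were 47, 4 and 27. Of those 195 tests for the regulatory particle, 144 had a positive log2 value. The 3 calls were Psmd8 in naive/central memory-like cells (0.30 ± 0.07), Psmd7 in cycling-like cells (0.28 ± 0.09) and Psmd1 in cluster 12 (1.67 ± 0.47). Leaving cluster 12 aside, the median log2 value of a class ran from 0.18 to 0.56 over the core and from -0.003 to 0.19 over the regulatory particle. In cluster 12, with 9 core and 10 regulatory particle genes tested, the medians were 1.34 and 0.56.

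**Figure D5:**
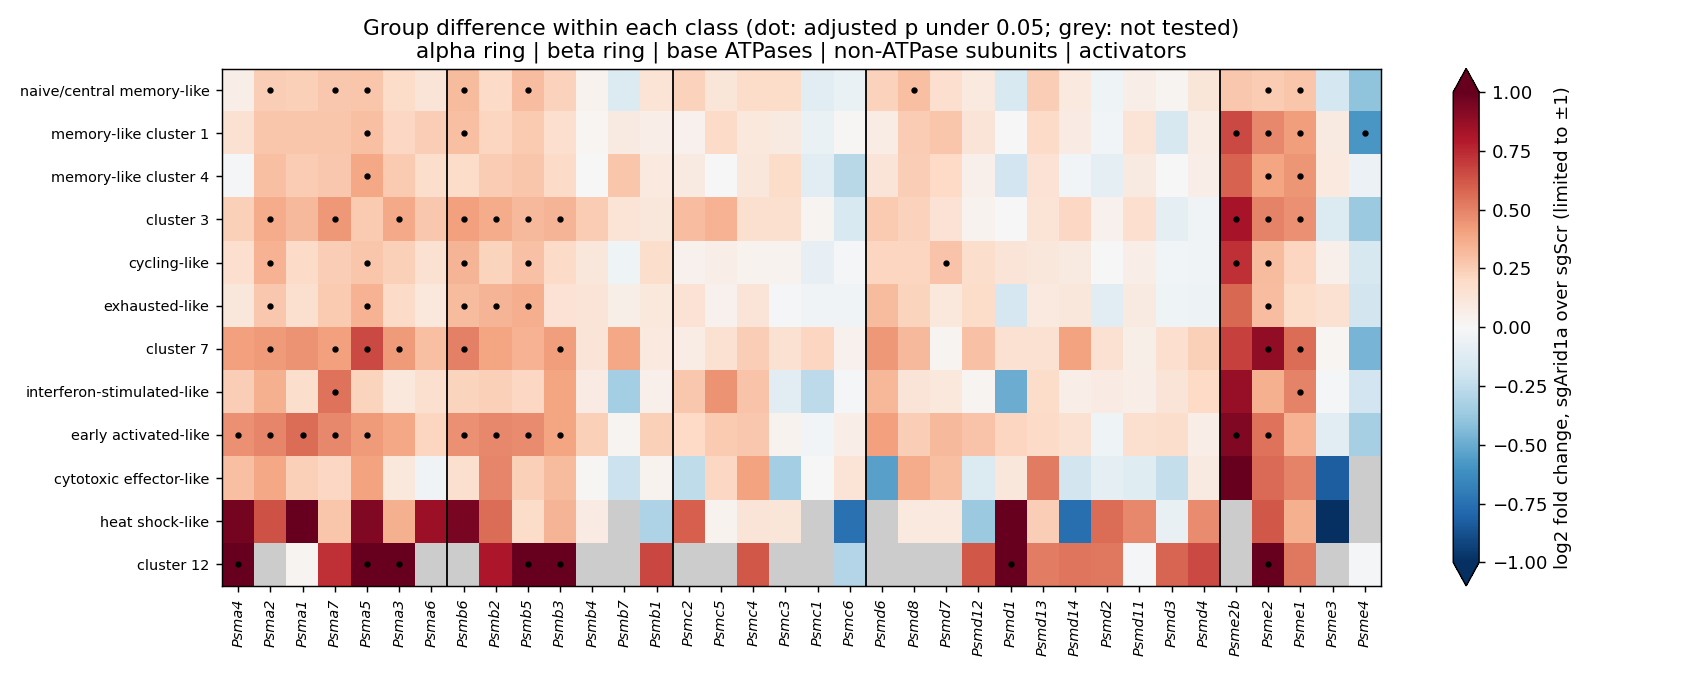
Log2 fold change of sgArid1a over sgScr within each class (rows) for the core, regulatory particle and activator genes (columns), on a colour scale limited to -1 (blue) and 1 (red), with a dot where the adjusted p was under 0.05 and grey where a gene was not tested. Dots mark 45 of 162 tested squares in the core columns and 3 of 195 in the regulatory particle columns.

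The members called in most classes were chosen here after their values were seen. Psme2 rose in 9 of 12 classes, Psma5, an alpha subunit, in 8 of 12, Psmb6 in 7 of 11, and Psmb5, Psma2 and Psme1 in 6 each. Psmb5 and Psmb6, whose promoters are printed above, had positive values in every class in which they were tested, 12 and 11. Psmb6 in naive/central memory-like cells was read at 125.0 and 128.5 CPM in sgScr and at 148.6 and 152.5 CPM in sgArid1a (0.31 ± 0.07). In cycling-like cells it stood at 381 and 365 CPM in sgScr and at 464 and 432 CPM in sgArid1a (0.34 ± 0.08). The groups do not overlap in either class. Psmb7, the beta2 subunit, passed in none of 10 classes, was positive in 6 of them, and in naive/central memory-like cells stood at 36.4 and 36.5 CPM in sgScr and at 34.0 and 30.6 CPM in sgArid1a. Psme4 had a negative value in all 10 classes in which it was tested.

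The ratio of the summed regulatory particle to the summed core, a ratio of transcript counts and not of subunits, was lower in sgArid1a. Over all T cells it was 0.536 in each sgScr sample and 0.455 and 0.477 in sgArid1a. It was lower in both sgArid1a samples than in both sgScr samples in 11 of the 12 classes, all but the heat shock-like cells, which held 50 to 122 cells per sample. In cycling-like cells it was 0.501 and 0.505 against 0.449 and 0.466, and in exhausted-like cells 0.482 and 0.476 against 0.426 and 0.442. The beta-to-alpha ratio was lower in both sgArid1a samples in 8 classes, and the lid-to-base ratio was higher in both in 5 and lower in both in 1, the heat shock-like cells. These counts are descriptions, since each ratio has 2 samples per group.

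At a common mix of cell states the group difference of the core stayed positive and that of the regulatory particle was smaller. The mean profiles of 13 clusters were weighted by the same mix in all 4 samples. The median log2 ratio of the core went from 0.58 to 0.20, that of the regulatory particle from 0.38 to 0.05, and that of all genes tested from -0.04 to -0.07. Between samples of a group the median log2 level had an SD of 0.02 over the core and 0.04 over the regulatory particle. The regulatory particle value was thus about as large as its spread. At the common mix 13 of the 14 core genes and 12 of the 17 regulatory particle genes were positive. Positive genes were not counted over all genes tested. Psmb6 kept 0.28, Psmb5 0.26 and Psma4 0.13, Psmb7 had -0.01 and Psme4 -0.36. With the 19 clusters of a finer clustering the medians were 0.23 over the core and 0.07 over the regulatory particle.

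Whether the group difference of a member depended on the state was tested between naive/central memory-like and cycling-like cells, as an interaction term in edgeR with the sample as a block. None of the 45 tested members passed, while 4.12% of 11632 genes did, and 2 members, Psmd1 and Psme2b, had an unadjusted p under 0.05. No other tool was run for this term. The core estimates ran from -0.04 to 0.10 on the log2 scale, with a standard error of 0.07 for Psma2, whose estimate was the highest. A missed threshold does not show that the difference was equal in these states. Of the pathway genes, Nfe2l2 passed (-0.63, adjusted p = 0.026), and so did Ubb, a polyubiquitin gene (-0.14, adjusted p = 0.044).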

How the data were processed

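CD8-positive T cells of 2 sgScr and 2 sgArid1a samples were measured as 10x Genomics 5-prime libraries. Titles gave the group and number of each sample. The deposited values are raw UMI counts per gene and barcode, limited to called cells. Per the file headers they were made with Cell Ranger 6.0.1, but Cell Ranger 3.0.2, with Seurat and mm10, per the submitters' processing notes. The authors' gene annotation is not given here.

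A barcode needed 500 genes or more and no more than 10% mitochondrial UMIs, which kept 38316 of 39473. Cells were scaled to 10000 UMIs, log-transformed and clustered on 2000 variable genes, without receptor, immunoglobulin, mitochondrial, ribosomal, sex-linked, Psm and pathway-list genes, by Leiden (resolution 0.8) from 15 neighbours in 30 principal components (scanpy 1.11.5, leidenalg 0.10.2), with no batch integration. A name ending in "-like" needed 3 or more raised markers of a list and no top gene that contradicted it. The marker count alone did not give a name: clusters 3, 7 and 12 reached it for a list and kept only a number. A cluster of 55 cells led by B cell and MHC class II genes was left out. No doublet caller was run, and removal before deposit is not stated. As an alternative, cells holding 2 or more UMIs from each of 2 Trbv segments were removed.

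Each sample's UMIs were added up over its T cells (32201336 to 81460688 UMIs) or per class (minimum 50 cells a sample). The sums were tested in edgeR 4.0.16 (TMM, filterByExpr, glmQLFit and glmQLFTest, no covariate) in R 4.3.3, Benjamini-Hochberg adjusted over all genes tested, at a threshold of 0.05. DESeq2 1.42.0, other size factors, no filter and left-out samples were alternatives. The edgeR steps were tested on simulated data. Same-numbered samples did not deviate together, so they were not paired. The common mix took clusters of 20 or more cells a sample, and its log2 ratios added 1 CPM to each level, so low genes are shrunk towards 0. Gene coordinates are on GRCm38 (mm10), matched by Ensembl identifier to GENCODE release M21.

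Members and lists were chosen with earlier results of these data known. Values in every sample are given for Psmb5, Psmb6 and Psmb7 and, per role, for the member with the highest level and those with the most positive and most negative change, and for members that fell. Per pathway list the passing gene with the largest change is named; other pathway genes named were chosen after their values were seen.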

Additional observations from a re-analysis of the deposited data

How the results depend on the processing

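Over all T cells 35 to 41 members rose and Psme4 fell under every alternative run: other size factors, DESeq2, no filter on low counts, a stricter filter on cells, removal of cells with 2 Trbv segments or of cycling-like cells, the replicate block and each sample left out. Of 209 values of the 19 named members under these alternatives, 202 kept their direction and call, 4 calls of Psmb1 and Psmg4 were lost without an sgScr sample, Psmd5 gained a call without sgArid1a replicate 1 (log2 0.15), and 2 reversed: Psmc6 without cycling-like cells (log2 of -0.050) and Psmd5 without sgArid1a replicate 2 (log2 of -0.0096), neither of which had passed. Summed over classes, the 72 calls of higher members in 501 tests became 45 in DESeq2, which gave an adjusted p in 381, and 11 to 88 with a sample left out, and 64 without cluster 12, a choice made after seeing the data. The 1 call of a lower member, Psme4, became 0 in DESeq2, which gave it no adjusted p in that class, 2 with no filter on low counts and 0 to 2 with a sample left out. Left-out samples leave a lone sample in its group, which is assumed to vary like the other group. The cause of these changes was not tested. Members passing the interaction numbered 0 with other size factors, with no filter on low counts and with each sample left out, the alternatives run for it. Without cycling-like cells the share differences were 0.37 (beta1), -3.34 (beta2) and -0.17 (beta5) percentage points. With a sample left out they ran from 1.92 to 3.73, from -1.59 to 0.06 and from 1.05 to 1.94. At resolution 1.5 the common-mix medians were 0.23 (core) and 0.07 (regulatory particle). The replicate number names no shared animal or day, and same-numbered samples did not deviate together (correlation of -0.0425 over 12793 genes). With 2 samples per group that value cannot exclude a shared animal or day. The replicate block gave 40 higher and 1 lower over all T cells, and 81 and 1 over the classes. Depth limits the classes with few cells: heat shock-like cells and cluster 12 had 34 and 23 members tested.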
